A study of Mus musculus with 4 samples.

Results

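The NF-kB subunits and their inhibitors were examined in cultured mouse natural killer (NK) cells given DKK2 (Dickkopf 2), a secreted ligand of the Wnt co-receptors. The genes were Nfkb1, Nfkb2, Rel, Rela and Relb, which encode the subunits, and Nfkbia, Nfkbib, Nfkbie, Tnfaip3 and Bcl3, which encode inhibitors and regulators. They were chosen by name for their role in the pathway, with earlier results of these data known. Each of the 10 stood on 1 row of the deposited table, which holds 33924 distinct symbols, and each was among the 12124 that averaged 1 FPKM or more (fragments scaled to transcript length and library size) and were tested. The DKK2 group (2 libraries) received the protein at 200 ng/ml for 24 hours and the Control group (2 libraries) received mock treatment. Cells of both groups came from spleens of C57BL/6 mice at postnatal day 56 and had first been kept in IL-15 (50 ng/ml) for 24 hours. IL-15 was thus common to all libraries, and untreated or freshly isolated cells are not part of the comparison. The labels do not say whether the replicates came from separate animals or cultures, so p-values reflect the variation among these libraries alone, and it may be technical.

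NF-kB is a family of dimeric transcription factors. In resting cells inhibitors of the IkB family hold the dimers in the cytoplasm, and a kinase complex (IKK) marks the inhibitors for destruction when receptors of the TNF, interleukin-1 or Toll-like families, or antigen-type receptors, are engaged. The freed dimers enter the nucleus and induce, among other genes, their own inhibitors, which closes a feedback loop. In NK cells the pathway is known for its part in activation and cytokine production. Transcript levels do not show whether the dimers are in the nucleus.

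Some facts of the libraries bear on every value below. The table gives FPKM and no read counts, and steps between its low values put the depth of the other libraries at 0.399 (DKK2 replicate 1), 0.401 (DKK2 replicate 2) and 0.351 (Control replicate 2) of that of Control replicate 1. NK markers were high throughout, with Ncr1, an activating receptor of NK cells, at 388.6 and 197.2 FPKM in the DKK2 libraries and 303.4 and 192.8 FPKM in the Control libraries. The NK marker Il2rb, a chain of the IL-15 receptor, was lowest in DKK2 replicate 1, as were 9 of the 10 members. It had 629.4 and 1292 FPKM in the DKK2 libraries and 1506 and 1182 FPKM in the Control libraries. The NK marker Prf1 was also lowest there, with 648.9 and 850.7 FPKM in the DKK2 libraries and 1207 and 954.8 FPKM in the Control libraries. Gzmb, another, had 6895 and 6115 FPKM in the DKK2 libraries and 11540 and 9908 FPKM in the Control libraries. Both also belong to the target list below. The NK markers Ncr1, Klrk1 and Eomes were instead highest in DKK2 replicate 1. So was the sum of the 12 NK markers, with 36590 and 23790 FPKM in the DKK2 libraries and 27820 and 28420 FPKM in the Control libraries. Such a sum follows its most abundant markers. Transcripts of other cells were also present and differed between libraries of 1 group. The 14 markers of neutrophils and basophils summed to 3697 FPKM in DKK2 replicate 1 and 345.5 FPKM in DKK2 replicate 2, against 5.195 FPKM in Control replicate 1, where 7 were listed at 0, and 215.3 FPKM in Control replicate 2. The 14 markers of B cells and plasma cells summed to 865.5 and 1099 FPKM in the DKK2 libraries, against 50.23 and 642.8 FPKM in the Control libraries. The 16 monocyte and macrophage markers gave 1458 and 1020 FPKM in the DKK2 libraries against 465.6 and 830.7 FPKM in the Control libraries. Of these 16, 14 were lowest in Control replicate 1, where 4 were listed at 0. The 12 T cell markers gave 422.8 and 413.2 FPKM in the DKK2 libraries against 294.6 and 315.7 FPKM in the Control libraries. Of these 12, 9 were lowest in Control replicate 1, against 18.1% of all genes tested. The 10 markers of other innate lymphoid cells summed to 116.9 and 207.1 FPKM in the DKK2 libraries and 66.73 and 188.3 FPKM in the Control libraries. The 9 erythroid and platelet markers summed to 9.758 and 22.95 FPKM in the DKK2 libraries and 0.3934 and 16.51 FPKM in the Control libraries. Those of stroma and endothelium (8 genes) were low, at 1.009 and 3.627 FPKM in the DKK2 libraries and 1.563 and 2.801 FPKM in the Control libraries. The 10 dendritic cell markers gave 138 and 157.6 FPKM in the DKK2 libraries and 129.7 and 116.6 FPKM in the Control libraries. From DKK2 replicate 1 to DKK2 replicate 2 the sums of B cells, dendritic cells, other innate lymphoid cells, erythroid cells and stroma rose. Those of neutrophils, monocytes, T cells and NK cells fell. NF-kB genes are expressed by many of these cells, and in bulk RNA fewer cells of a type and less RNA per cell cannot be told apart. The part of other cells in the results below was not tested.

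Nfkb1, which encodes the precursor of a subunit that lacks an activation domain, was the most abundant of these transcripts per length in all 4 libraries. It averaged 141.7 FPKM over the 4 libraries (SD 11.7), and its lowest value of 129.5 FPKM lay above the highest value of every other member. Nfkbia followed with a mean of 35.7 FPKM, then Tnfaip3 with 34.69, Rela with 31.85, Nfkb2 with 24.87, Bcl3 with 21.71, Nfkbib with 21.15, Relb with 12.43, Nfkbie with 10.43 and Rel with 9.189 FPKM. From Nfkbia downward the ranges over the libraries of each neighbouring pair overlapped, so the order of neighbours is not fixed by these data. Rel was the least abundant in 3 of the 4 libraries, and Nfkbie in Control replicate 1.

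**Figure D1:**
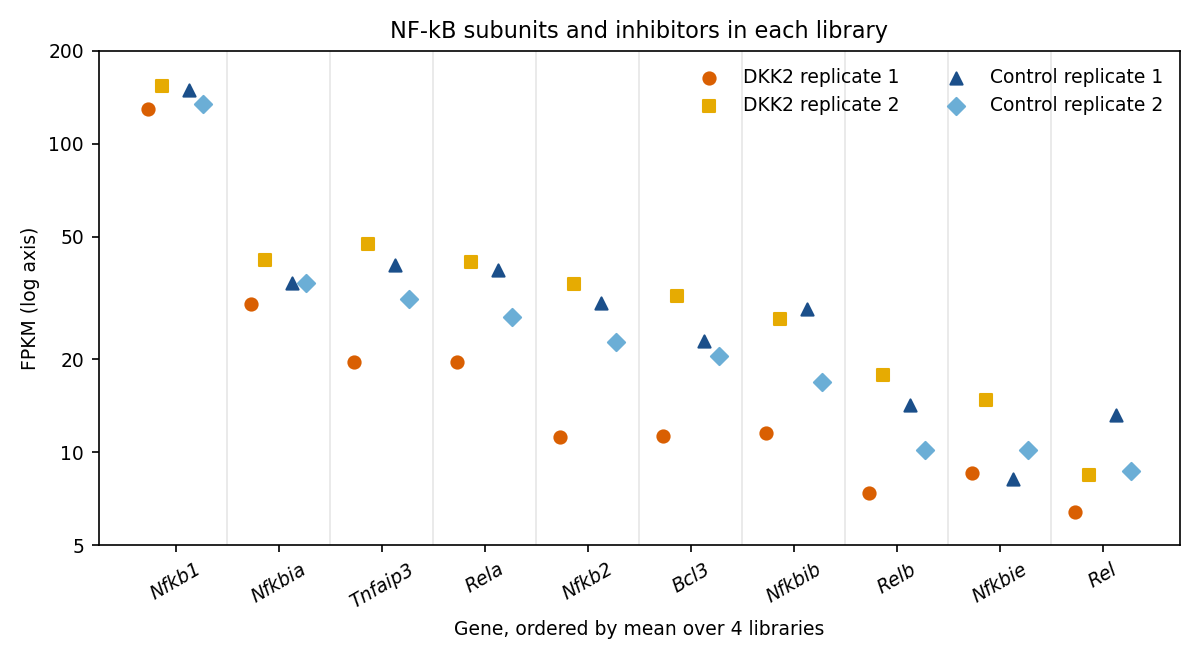
FPKM (log axis) of each of the 10 genes in each library, with genes ordered by their mean and the DKK2 libraries drawn left of the Control libraries. Nfkb1 stands above the rest at 129.5 to 153.6 FPKM, and DKK2 replicate 1 is the lowest point for 9 of the 10 genes.

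Promoter sequences of these genes are shown because the pathway is known to act on several of its own genes and because most of the members varied together between libraries. RefSeq windows (build GRCm38.p6) were matched by symbol for 8 of the 10 members, and the 250 bases before the annotated start were searched on both strands for the kappa B consensus motif, the 10-base sequence to which NF-kB dimers bind. The motif was found for 5 of these 8 members (Nfkb2, Rel, Nfkbia, Nfkbie and Tnfaip3), and in 7 of their 11 windows. Of all 32851 windows in the table, 3.9% held it in the same stretch. Matches can overlap, since the motif is close to a palindrome, and a match is a description of letters, not of binding. Rela, Nfkbib and Bcl3 had no match in this stretch. The stretches below run 5′ to 3′ on the strand of the gene, with the bases of each match in capitals. They lie at chr19:46304487-46304736 (plus strand, the window farthest upstream of 3) for Nfkb2, chr12:55492648-55492897 (minus strand) for Nfkbia, chr10:19015411-19015660 (minus strand, the window farther upstream of 2) for Tnfaip3, chr11:23770970-23771219 (minus strand) for Rel and chr19:5637291-5637540 (plus strand) for Rela, which is shown as the member without a match that encodes the main activating subunit.
Nfkb2: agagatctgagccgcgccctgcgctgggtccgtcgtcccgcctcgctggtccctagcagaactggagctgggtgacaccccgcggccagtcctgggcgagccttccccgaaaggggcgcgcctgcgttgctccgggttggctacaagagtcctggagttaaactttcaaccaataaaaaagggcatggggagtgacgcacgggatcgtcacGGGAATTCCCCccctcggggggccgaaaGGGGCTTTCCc
Nfkbia: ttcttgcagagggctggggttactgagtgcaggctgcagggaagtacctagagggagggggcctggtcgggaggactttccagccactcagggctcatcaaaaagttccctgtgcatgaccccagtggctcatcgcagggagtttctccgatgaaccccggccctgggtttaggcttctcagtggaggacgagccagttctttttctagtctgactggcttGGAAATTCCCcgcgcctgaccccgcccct
Tnfaip3: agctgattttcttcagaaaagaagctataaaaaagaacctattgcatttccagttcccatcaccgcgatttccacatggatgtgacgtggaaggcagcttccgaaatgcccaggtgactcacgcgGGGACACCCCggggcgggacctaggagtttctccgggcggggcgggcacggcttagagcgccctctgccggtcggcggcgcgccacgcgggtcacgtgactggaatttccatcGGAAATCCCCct
Rel: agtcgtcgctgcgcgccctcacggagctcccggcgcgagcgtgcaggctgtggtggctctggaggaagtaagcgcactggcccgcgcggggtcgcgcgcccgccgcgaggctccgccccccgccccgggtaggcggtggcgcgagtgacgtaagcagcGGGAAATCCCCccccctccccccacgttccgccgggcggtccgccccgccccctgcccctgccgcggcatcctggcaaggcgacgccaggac
Rela: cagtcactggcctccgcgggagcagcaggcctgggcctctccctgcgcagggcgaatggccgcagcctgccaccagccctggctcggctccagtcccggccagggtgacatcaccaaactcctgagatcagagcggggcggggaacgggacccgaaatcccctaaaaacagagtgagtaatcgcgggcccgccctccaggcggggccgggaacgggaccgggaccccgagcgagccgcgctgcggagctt
In Nfkb2 the matches ended 29 and 2 bases before the start, in Nfkbia 20 bases, in Tnfaip3 116 and 3 bases, and in Rel 82 bases.

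None of the 10 genes passed the test between DKK2 and Control. In limma on log2(FPKM + 1), with p-values adjusted by the Benjamini-Hochberg method across all 12124 genes and called below 0.05, the adjusted p was 1 for each member, and the smallest unadjusted p was 0.194, for Rel. Over all genes the background of calls was 0.0412% (5 genes), with 0.0165% called higher and 0.0247% called lower, and 1.9% of genes had an unadjusted p under 0.05. The fitted log2 fold change was below 0 for 8 members and above 0 for 2, against 56.4% of all genes below 0. The members' median was -0.18 and that of all genes -0.05. The sign of that median rested on single libraries. It was 0.362 without DKK2 replicate 1, where 9 of 10 members lay above 0, -0.686 without DKK2 replicate 2, where all 10 lay below 0, and 0.031 without Control replicate 1. An exact permutation test of 2 libraries against 2 cannot go below p = 0.333, so limma, which pools the spread over genes, was the only test used.

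Among the subunits that carry an activation domain, Rela, the main one of the canonical pathway, had 19.62 and 41.29 FPKM in the DKK2 libraries and 39.06 and 27.42 FPKM in the Control libraries. The DKK2 libraries were thus the lowest and the highest of the 4, with both Controls between them. Its log2 fold change was -0.19 ± 0.43 (SE, n = 2 each; 95% interval -1.29 to 0.91, limma adjusted p = 1).

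Rel, which encodes the lymphoid subunit c-Rel, was the only member whose groups did not overlap. It had 6.41 and 8.474 FPKM in the DKK2 libraries, against 13.19 and 8.684 FPKM in the Control libraries. DKK2 replicate 2 and Control replicate 2 nearly coincided, and most of the gap came from Control replicate 1. The log2 fold change was -0.48 ± 0.32 (SE, n = 2 each; 95% interval -1.31 to 0.35, limma adjusted p = 1), and without Control replicate 1 it was -0.209. Groups that do not overlap were frequent in this table, with 14.8% of all genes lower, 11.8% higher and 26.6% in either direction, so 1 member of 10 lower and 0 higher is not above that background.

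Relb, the partner of the Nfkb2 product in the non-canonical pathway, had 7.402 and 17.87 FPKM in the DKK2 libraries and 14.23 and 10.21 FPKM in the Control libraries. Again the DKK2 libraries lay on either side of the Controls. Its log2 fold change was -0.05 ± 0.46 (SE, n = 2 each; limma adjusted p = 1).

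The precursor genes differed from each other in how far they spread. Nfkb1 had 129.5 and 153.6 FPKM in the DKK2 libraries and 149.5 and 134 FPKM in the Control libraries, a mean of 142 ± 17 FPKM in the DKK2 libraries and 142 ± 11 FPKM in the Control libraries (SD, n = 2 each). Its log2 fold change was -0.01 ± 0.26 (SE, 95% interval -0.67 to 0.66). Nfkb2, whose product is cut to the non-canonical subunit, had 11.25 and 35.05 FPKM in the DKK2 libraries and 30.47 and 22.7 FPKM in the Control libraries. Its log2 fold change was -0.38 ± 0.56 (SE, n = 2 each; 95% interval -1.81 to 1.05), the widest interval of the 10. Within the DKK2 group alone, Nfkb2 differed 3.12-fold between the libraries, while Nfkb1 differed 1.19-fold.

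The inhibitors of the IkB family gave no common direction. Nfkbia encodes IkB-alpha, the inhibitor that NF-kB induces most rapidly. It had 30.18 and 41.87 FPKM in the DKK2 libraries and 35.37 and 35.37 FPKM in the Control libraries, with both Controls between the DKK2 values. Its log2 fold change was 0.01 ± 0.28 (SE, n = 2 each; 95% interval -0.7 to 0.71). Nfkbib, which encodes IkB-beta, had 11.55 and 26.98 FPKM in the DKK2 libraries, against 29.12 and 16.96 FPKM in the Control libraries. Both groups of Nfkbib were wide, and they overlapped (log2 fold change -0.31 ± 0.49). Nfkbie, which encodes IkB-epsilon, had 8.572 and 14.79 FPKM in the DKK2 libraries, against 8.179 and 10.19 FPKM in the Control libraries. It was the only member that was lowest in Control replicate 1, and its log2 fold change of 0.28 ± 0.35 was the highest of the 10 (limma adjusted p = 1 for all 3 inhibitors).

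Tnfaip3 encodes a ubiquitin-editing enzyme that shuts off signalling upstream of IKK, and like Nfkbia it is a known target of the pathway. It had 19.66 and 47.29 FPKM in the DKK2 libraries and 40.4 and 31.4 FPKM in the Control libraries. The means were 33.5 ± 19.5 FPKM in the DKK2 libraries and 35.9 ± 6.37 FPKM in the Control libraries (SD, n = 2 each), so the group difference was far smaller than the spread inside the DKK2 group. Bcl3 encodes an atypical, nuclear member of the IkB family that binds dimers of the Nfkb1 and Nfkb2 products. It had 11.28 and 32.12 FPKM in the DKK2 libraries and 22.95 and 20.51 FPKM in the Control libraries, and the mean was 21.7 FPKM in both groups. The log2 fold changes were -0.21 ± 0.46 for Tnfaip3 and -0.17 ± 0.51 for Bcl3 (SE, n = 2 each; limma adjusted p = 1 for both).

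In the annotation used (GENCODE M21), exons of 3 members overlap those of genes on the opposite strand. These are Psd and a long non-coding RNA for Nfkb2, Sirt2 and Ccer2 for Nfkbib, and the antisense gene Gm16175 for Bcl3. The sources used here do not state whether counting used strand, so the values of these 3 members are uncertain to that extent.

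**Figure D2:**
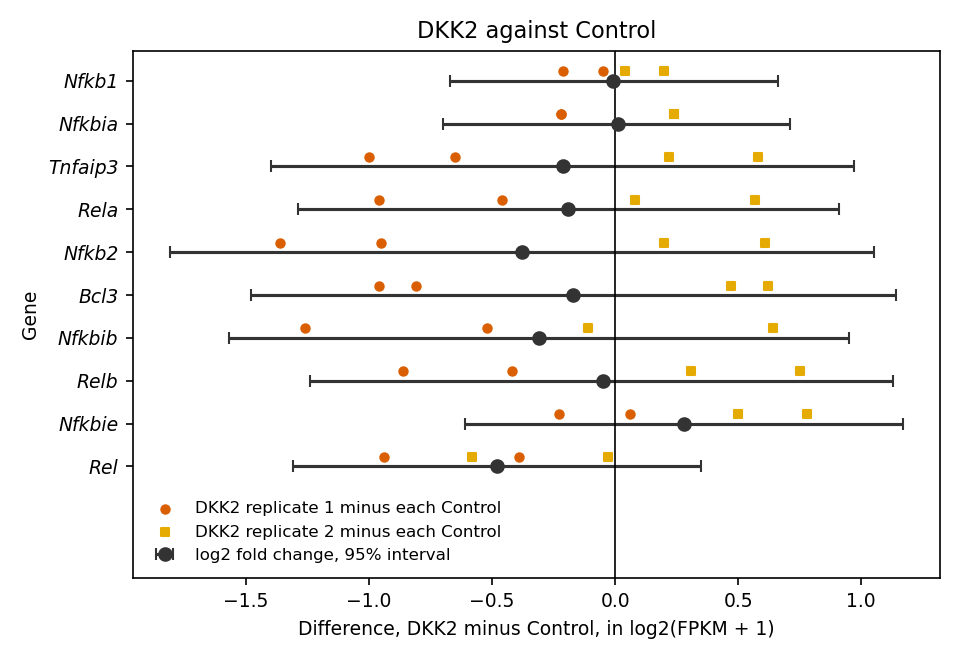
Difference between DKK2 and Control in log2(FPKM + 1) for each gene. Black points with bars are the fitted log2 fold change and its 95% interval, and the small points above them are each DKK2 library minus each Control library. All 10 intervals include 0, and for Nfkb2 the differences of DKK2 replicate 1 are -1.36 and -0.95 while those of DKK2 replicate 2 are 0.2 and 0.61.

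The members varied together between the DKK2 libraries rather than between the groups. DKK2 replicate 1 was the lowest library for 9 of 10 members, against 36.8% of all genes tested. DKK2 replicate 2 was the highest for 8 of 10, against 25.8% of all genes. Both held for 7 members (Nfkb1, Nfkb2, Rela, Relb, Nfkbia, Tnfaip3 and Bcl3), against 13.4% of all genes. The difference between DKK2 replicate 2 and DKK2 replicate 1 in log2(FPKM + 1) ran from 0.24 for Nfkb1 to 1.56 for Nfkb2. Its median was 1.1 over the members and 0.07 over all genes. At least 1 on that scale, a limit set after the values were seen, was reached by 6 members (Nfkb2, Bcl3, Tnfaip3, Relb, Nfkbib and Rela) and by 8.82% of all genes. The Control libraries differed less, by a median of -0.38 for Control replicate 2 minus Control replicate 1, against -0.08 over all genes. Among the Controls, Nfkbia differed by 0 at 2 decimals and Nfkbib by -0.75.

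The members that varied most alike, by the distance between their mean-centred log2 patterns over the 4 libraries, were Rela and Relb (0.17), Rela and Tnfaip3 (0.17) and Relb and Tnfaip3 (0.18). Nfkb1 and Nfkbia were close to each other (0.19), both with little variation. Nfkb1 and Nfkb2, the precursor genes, were the least alike of all pairs (1.02). Outside the family, the tested genes with the pattern most like that of Nfkb1 were Plekha2 (distance 0.019), Hsd17b4 (0.0211) and Fam149b (0.0258). With 4 libraries, such closeness describes these libraries only. Among members with a kappa B match, the difference between the DKK2 libraries was 1.56 for Nfkb2, 1.22 for Tnfaip3, 0.72 for Nfkbie, 0.46 for Nfkbia and 0.35 for Rel. Among those searched without a match, it was 1.43 for Bcl3, 1.16 for Nfkbib and 1.04 for Rela. The members without a match, and Nfkb2, belong to the highest decile of GC content, described below. Whether the motif has a part in this variation was not tested.

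**Figure D3:**
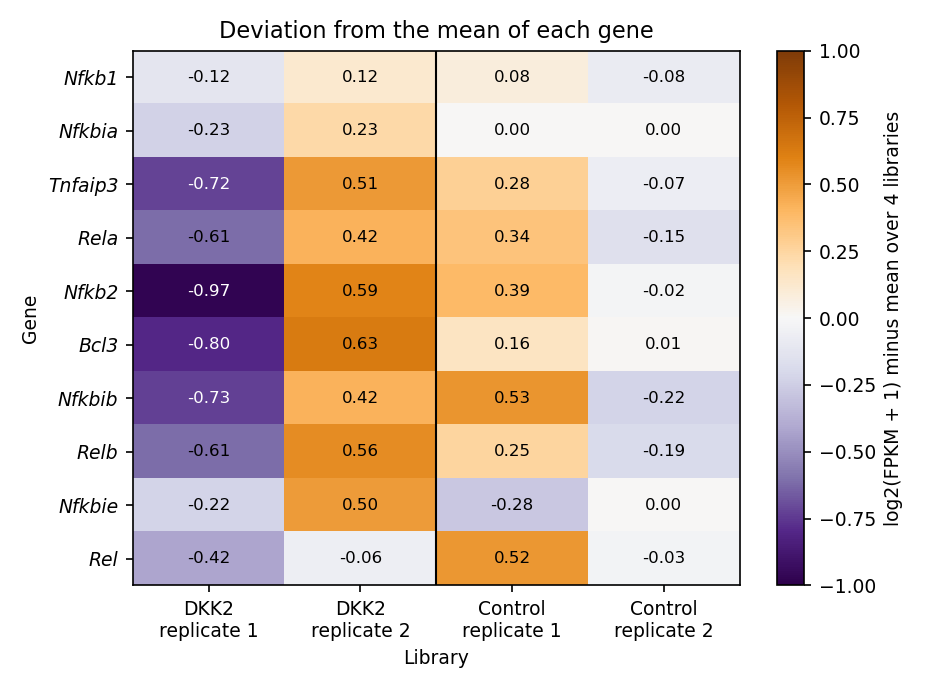
Deviation of each gene in each library from its own mean over the 4 libraries, in log2(FPKM + 1); orange is above and purple below the mean. DKK2 replicate 1 is below the mean for all 10 genes (-0.97 for Nfkb2), DKK2 replicate 2 is above it for 9, and Rel deviates most in Control replicate 1 (0.52).

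GC content moved with this variation. Over the 11766 tested genes with an annotated transcript (97%), the median difference between DKK2 replicate 2 and DKK2 replicate 1 climbed with each decile of transcript GC content, with -0.41 in the lowest decile, -0.27 in the second and 0.65 in the highest. The Control libraries showed the opposite slope, with a median for Control replicate 2 minus Control replicate 1 of 0.18 in the lowest decile and -0.44 in the highest. Of the members, 5 belong to the highest decile (Bcl3 at 62.6% GC, Relb at 61.1%, Nfkb2 and Rela at 59.4% and Nfkbib at 58.8%), and these 5 are among the 6 with a difference of at least 1. Tnfaip3, the sixth, has 49.4% GC, and its difference of 1.22 stood beside a decile median of 0 and an upper quartile of 0.37. Rel, with only 42.5% GC, had a difference of 0.35 beside a decile median of -0.27. In all, 7 members lay above the upper quartile of their own decile, and Nfkb1 (0.24), Nfkbia (0.46) and Nfkbie (0.72) lay within it.

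Each library was then freed of its trend on GC content by a loess fit, an alternative chosen after seeing the data. The median difference between the DKK2 libraries came to 0.51 for the members and 0.01 for all genes. In the lists described below it was 0.66 for the receptors, 0.32 for the IKK and upstream genes and 0.27 for the target genes. Among the members the difference was 0.92 for Nfkb2, 0.7 for Bcl3, 0.54 for Nfkbib, 0.47 for Relb and 0.4 for Rela. These were all smaller than before the correction. It stayed at 1.2 for Tnfaip3, was 0.66 for Rel, larger than before, and was -0.02 for Nfkb1. The difference between the Control libraries had a corrected median of 0.04. Between DKK2 and Control, 5 corrected members lay above 0 and 5 below, with a median of -0.022, and 0 of 10 passed limma.

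**Figure D4:**
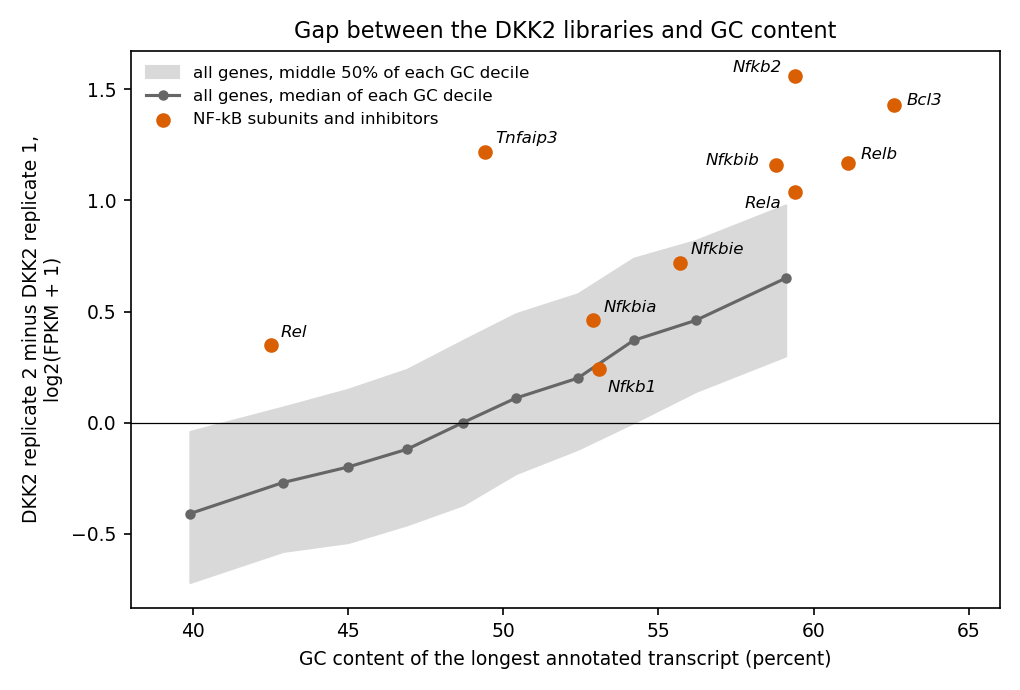
DKK2 replicate 2 minus DKK2 replicate 1 in log2(FPKM + 1) against transcript GC content in percent. The grey line and band are the median and the middle 50% of all tested genes in each GC decile, and orange points are the 10 genes; Tnfaip3 and Rel stand above the band at moderate and low GC, and Nfkb1, Nfkbia and Nfkbie lie inside it.

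The machinery around the members gave no call either. The list of IKK subunits, adaptors, ubiquitin enzymes and atypical inhibitors had 48 of 49 genes in the table, all tested, of which 21 had a fold change above 0 and 27 below. None passed limma in either direction (adjusted p over all genes), 0 had an unadjusted p under 0.05, and the median log2 fold change was -0.06. That median was 0.192 without DKK2 replicate 1, -0.260 without DKK2 replicate 2, 0.020 without Control replicate 1 and -0.098 without Control replicate 2. The groups did not overlap for 3 genes that were higher and 6 that were lower. Of all genes, 11.8% were higher, 14.8% lower and 26.6% either without overlap. The widest fold changes among these were those of Sharpin, Tab3, Itch and Prkcq. Sharpin, a subunit of the linear ubiquitin ligase complex, had 60.12 and 62.19 FPKM in the DKK2 libraries and 56.89 and 39.16 FPKM in the Control libraries. For Tab3, an adaptor of the TAK1 kinase, the DKK2 libraries had 4.445 and 3.826 FPKM and the Control libraries 4.946 and 6.049 FPKM. The ubiquitin ligase gene Itch gave 27.55 and 35.07 FPKM in the DKK2 libraries, against 38.57 and 38.16 FPKM in the Control libraries. Prkcq, a kinase upstream of IKK, gave 94.27 and 71.13 FPKM in the DKK2 libraries against 65.53 and 70.02 FPKM in the Control libraries. All 4 intervals of the log2 fold change in limma include 0. The IKK subunits overlapped between the groups in 2 of 3 cases. Ikbkb, the main catalytic subunit of the canonical pathway, had 27.7 and 41.4 FPKM in the DKK2 libraries and 33.14 and 32.72 FPKM in the Control libraries. Chuk, the catalytic subunit of the non-canonical pathway, had 36.99 and 28.93 FPKM in the DKK2 libraries and 28.27 and 28.55 FPKM in the Control libraries. Ikbkg, the regulatory subunit, had 19.65 and 33.22 FPKM in the DKK2 libraries and 26.43 and 23.96 FPKM in the Control libraries. The pattern of the members, lowest in DKK2 replicate 1 and highest in DKK2 replicate 2, held for 21 of the 48 (43.8%, against 13.4% of all genes). In the 2 lists described next, it held for 3 of 16 receptors tested (18.8%) and 6 of 51 target genes tested (11.8%). One further gene was picked after its values were seen. It is one of those in the IKK and upstream list with a wide difference between the DKK2 libraries. Tnip1, a partner of the Tnfaip3 product, had 16.48 and 45.84 FPKM in the DKK2 libraries and 30.92 and 27.73 FPKM in the Control libraries.

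Of 21 receptors that feed the pathway, 16 were tested, 9 with a fold change above 0 and 7 below (median 0.21), and none passed limma (0 had an unadjusted p under 0.05). The median was 0.561 without DKK2 replicate 1, -0.036 without DKK2 replicate 2 and 0.105 without Control replicate 1, and it was also -0.036 over the genes averaging at least 5 FPKM. The groups did not overlap for 2 genes that were higher (Tnfrsf4 and Nod1) and 1 that was lower (Tlr4). The shares of all genes were 11.8% higher, 14.8% lower and 26.6% either. Tnfrsf4, which encodes OX40, had 1.702 and 1.697 FPKM in the DKK2 libraries and 0.6116 and 1.615 FPKM in the Control libraries. The intracellular sensor Nod1 had 8.788 and 12.7 FPKM in the DKK2 libraries and 8.696 and 7.402 FPKM in the Control libraries. Tlr4, a Toll-like receptor, differed little in any library, with 7.973 and 7.815 FPKM in the DKK2 libraries and 8.387 and 8.072 FPKM in the Control libraries. The TNF receptor Tnfrsf1a, picked after its values were seen, as the gene of this list with the widest difference between the DKK2 libraries in log2(FPKM + 1), had 25.21 and 112.6 FPKM in the DKK2 libraries and 76.43 and 65.31 FPKM in the Control libraries.

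Textbook target genes of NF-kB other than the members gave a mixed picture. Of 55 listed, 51 were tested, 31 with a fold change above 0 and 20 below (median 0.1). Without DKK2 replicate 1 the median was 0.485, without DKK2 replicate 2 it was -0.100, and without Control replicate 1 it was 0.061, so its sign and size rested on single libraries. None passed limma with adjustment over all genes, and 1 (Plau) had an unadjusted p under 0.05. The groups did not overlap for 10 genes that were higher and 7 that were lower. The shares of all genes were again 11.8% higher, 14.8% lower and 26.6% either. The 7 lower genes were Lta, Csf2, Cd69, Bcl2, Gzmb, Prf1 and Ifng. Their log2 fold changes ran from -1.02 for Ifng to -0.43 for Bcl2. All 7 were highest in Control replicate 1, as were 15 of the 51 targets and 3843 of the 12124 genes tested. Between DKK2 replicate 2 and Control replicate 2 their differences in log2(FPKM + 1) ran from -0.7 for Gzmb to -0.02 for Lta. That of Ifng was -0.09. The 10 higher genes were Ccl22, Mmp9, Cd86, Plau, Cd83, Cd80, Il15, Fas, Psmb9 and Zfp36. Ccl22, Mmp9, Cd86 and Plau, all higher, had the widest fold changes among the genes without overlap. The chemokine gene Ccl22 had 9.816 and 20.54 FPKM in the DKK2 libraries and 0.317 and 9.105 FPKM in the Control libraries. Mmp9, a protease gene, had 10.51 and 0.6967 FPKM in the DKK2 libraries and 0.03572 and 0.2785 FPKM in the Control libraries. It passed the filter on mean FPKM only through DKK2 replicate 1. The neutrophil marker S100a8 was also highest there, with 1738 and 56.41 FPKM in the DKK2 libraries and 0.3411 and 31.57 FPKM in the Control libraries. Cd86, a costimulatory ligand, had 8.732 and 8.377 FPKM in the DKK2 libraries and 0.2204 and 6.347 FPKM in the Control libraries. For Plau, which encodes urokinase, the values were 7.538 and 7.089 FPKM in the DKK2 libraries and 0.7614 and 3.243 FPKM in the Control libraries. All 4 were lowest in Control replicate 1, as were 22 of the 51 targets (43.1%, against 18.1% of all genes). Cd74, of B cells and other antigen-presenting cells, had 191.7 and 275.5 FPKM in the DKK2 libraries and 3.894 and 126.8 FPKM in the Control libraries, and the myeloid gene Lyz2 had 552.3 and 208.5 FPKM in the DKK2 libraries and 0.8891 and 141.5 FPKM in the Control libraries. Both were thus also lowest in Control replicate 1. The part of such cells in the values of the targets was not tested. Only 1 of the 10 members, Nfkbie, was lowest in that library.

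**Figure D5:**
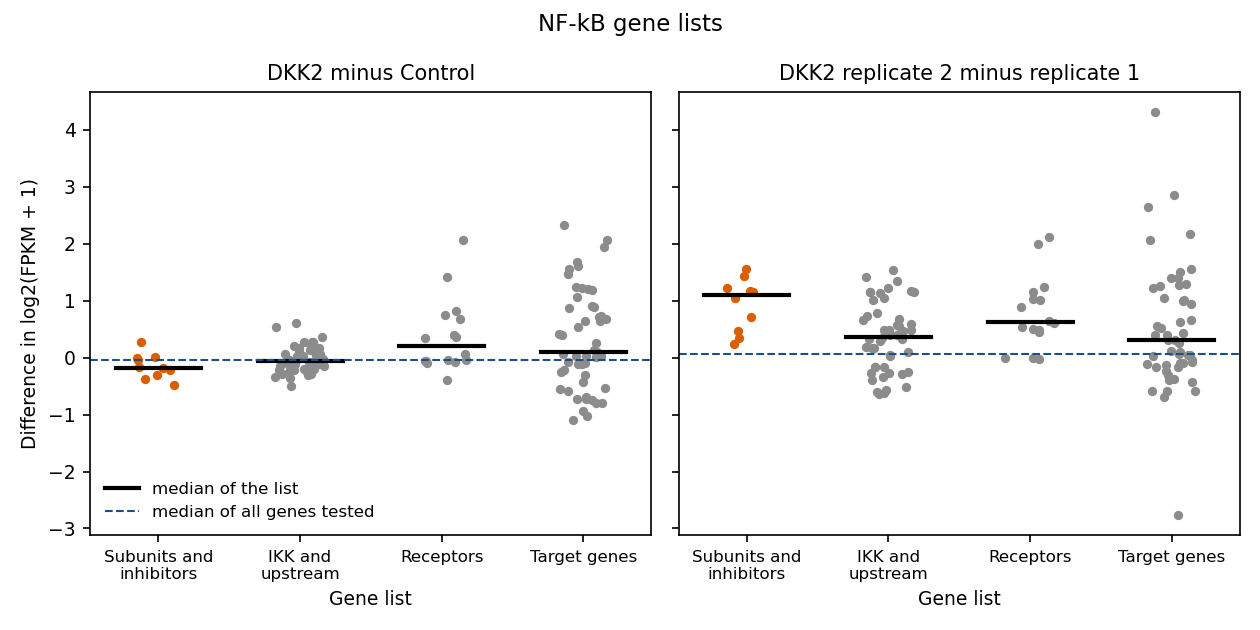
Difference in log2(FPKM + 1) of each gene in the 4 lists, for DKK2 minus Control on the left and for DKK2 replicate 2 minus DKK2 replicate 1 on the right. Black bars are list medians and the dashed line is the median of all genes tested; the members' median is -0.18 on the left and 1.1 on the right.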

How the data were processed

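RNA of 4 libraries of IL-15-cultured mouse splenic NK cells (DKK2, 2; Control, 2) was sequenced as stranded total RNA, per the labels' protocols. The authors deposited 1 table of 37305 rows with an FPKM column per library, per the file headers. Build mm9, CASAVA, edgeR, TopHat2 2.1.0 and Cuffdiff 2.1.0 appear in the submitters' processing notes, with no roles. The annotation, strand setting and filters are not given in the sources used here.

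For repeated symbols the row of highest mean was kept. The 12124 symbols averaging 1 FPKM or more were compared as log2(FPKM + 1), which understates the change of low genes, with limma 3.58.1 in R 4.3.3 (lmFit, eBayes with trend, two-sided). Without read counts, no count model or counting interval applied, and relative depth was read from the most frequent ratio between values under 0.3 FPKM. The fit was tested on simulated data, with shifts far larger than any fitted for the members and no trend on GC content. That test does not show how the fit does at the members' sizes. GC content is that of the longest protein-coding transcript in GENCODE M21, or the longest transcript of any kind. RefSeq promoters are on another build than mm9 and served only for sequence.

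Genes of the other lists were named where groups did not overlap, up to 4 per list by size of fold change. Exceptions were IKK subunits (named for their role), the other target genes whose groups did not overlap and genes marked as picked later. The members and lists were chosen with earlier results of these data known. Alternatives covered the pseudocount, filter, scaling, variance model, replicate block, each library left out and GC content.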

Additional observations from a re-analysis of the deposited data

How the results depend on the processing

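In all 15 alternative settings 0 of the 10 members passed limma. Over the fits that left out a library, the members' median lay between -0.686 and 0.362, and over the other settings between -0.195 and -0.022. The medians of the other lists also turned sign with the library left out. They lay between -0.260 and 0.192 for the IKK and upstream list (other settings -0.077 to 0.043), between -0.036 and 0.561 for the receptors (other settings -0.036, at a filter of 5 FPKM, to 0.320) and between -0.100 and 0.485 for the targets (other settings 0.030 to 0.172). The signs of several members, all uncalled, depended on the setting. Nfkb1 (-0.005 as reported) was at 0.028 with quantile normalization, 0.062 with equal library medians, 0.063 when rescaled without the highest row and 0.058 with GC correction, with or without the replicate block. Relb was at 0.023, 0.013, 0.012 and 0.106 under the same 4 settings, and Bcl3 at 0.007 with GC correction, with or without the block. With 1 library left out, the fold changes ranged from -0.886 to 0.545 for Bcl3, -0.127 to 0.117 for Nfkb1, -1.157 to 0.401 for Nfkb2, -0.222 to 0.237 for Nfkbia, -0.890 to 0.267 for Nfkbib, -0.082 to 0.640 for Nfkbie, -0.711 to 0.326 for Rela, -0.637 to 0.530 for Relb and -0.826 to 0.399 for Tnfaip3, while Rel stayed below 0 (-0.760 to -0.209). The lone library of a group was then assumed to vary like the others. Over the whole table, 5 genes were called, against 0 without a filter (938 at an unadjusted p under 0.05), 3 when rescaled without the highest row, 11 with the replicate block, 0 with GC correction (402 unadjusted), 1 with the block and GC correction, and 0 with any library left out (124 to 839 unadjusted). The cause was not tested. The labels do not say whether replicate numbers pair the libraries. Deviations of same-numbered libraries had a correlation of 0.016 across genes. This value cannot settle pairing, since the DKK2 and Control libraries had opposite slopes on GC content. No member was called with or without the block. FPKM without counts limits what can be said of low genes, and with 2 libraries per group the intervals of the members are wide.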
